A study of Mus musculus with 454 samples.

Results

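The genes described here are those of the mouse dopamine receptors, Drd1, Drd2, Drd3, Drd4 and Drd5. They were chosen by symbol, 5 of the 43346 genes in the count table, and their measured values played no part in the choice. They were followed through 454 RNA-seq libraries of mouse brain that carry the region labels Nac (112 libraries), AMY (115), PFC (112) and VTA (115). In this field these abbreviations stand for nucleus accumbens, amygdala (the study's title names the medial amygdala), prefrontal cortex and ventral tegmental area. Within each region the labels cross sex, housing (isolated or group-housed), dose (7.5 mg/kg cocaine, or 0 mg/kg, which the study's design calls saline) and schedule (chronic or acute). This makes 16 groups a region and 64 in all, with 5 to 8 libraries each. The title places the isolation in adolescence. Strain and age are not given in the labels, nor is it said that every library comes from a different animal. A p-value therefore measures the spread between these libraries, part of which may be technical.

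Dopamine receptors are G protein-coupled receptors of 2 families. Drd1 and Drd5 encode the D1-like receptors, which act through stimulatory G proteins and raise cyclic AMP. Drd2, Drd3 and Drd4 encode the D2-like receptors, which act through inhibitory G proteins and lower it. In the striatum, which includes the nucleus accumbens, Drd1 marks the projection neurons of the direct pathway and Drd2 those of the indirect pathway. Drd2 is also the autoreceptor of midbrain dopamine neurons, which lets them sense their own transmitter, and is carried together with Drd5 by striatal cholinergic interneurons. Cocaine blocks the dopamine transporter, so that dopamine stays longer around all of these receptors.

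The RefSeq promoter windows (GRCm38.p6, 250 bases before to 50 bases after a transcript's start) are printed for Drd1, Drd2 and Drd3. Drd1 and Drd2 are the most highly expressed members, and Drd3 is low and highest in Nac. The 3 were also called together in PFC, Drd3 on very few reads, as described further on. The Drd1 window is chr13:54055609-54055908 on the minus strand, the Drd2 window chr9:49340153-49340452 on the plus strand and the Drd3 window chr16:43761971-43762270 on the plus strand. Capitals mark GC boxes (GGGCGG, or CCGCCC for the other strand).
Drd1: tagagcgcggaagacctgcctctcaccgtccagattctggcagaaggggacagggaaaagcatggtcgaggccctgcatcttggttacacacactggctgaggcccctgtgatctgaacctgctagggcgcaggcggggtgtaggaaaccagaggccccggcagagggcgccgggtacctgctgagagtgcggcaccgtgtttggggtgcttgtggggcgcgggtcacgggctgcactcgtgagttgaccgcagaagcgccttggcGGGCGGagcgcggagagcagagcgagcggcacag
Drd2: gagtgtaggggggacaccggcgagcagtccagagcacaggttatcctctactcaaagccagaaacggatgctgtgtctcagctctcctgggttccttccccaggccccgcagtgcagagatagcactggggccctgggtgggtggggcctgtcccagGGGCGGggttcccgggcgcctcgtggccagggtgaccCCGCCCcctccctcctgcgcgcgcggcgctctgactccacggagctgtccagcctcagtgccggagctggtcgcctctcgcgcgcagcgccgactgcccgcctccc
Drd3: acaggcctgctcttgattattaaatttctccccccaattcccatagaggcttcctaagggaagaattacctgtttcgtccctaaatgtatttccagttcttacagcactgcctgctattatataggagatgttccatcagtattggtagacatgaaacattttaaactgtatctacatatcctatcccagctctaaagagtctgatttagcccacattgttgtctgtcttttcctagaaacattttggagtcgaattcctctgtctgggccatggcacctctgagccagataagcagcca
The Drd1 window had a GC content of 65.7%, 23 CpG and 1 GC box, and the Drd2 window 70.3%, 23 CpG and 2 GC boxes. The Drd3 window had a GC content of 42%, 2 CpG and no GC box. In GENCODE coordinates (chr16:43754026-43822932, plus strand) this window lies inside the gene, downstream of the gene's start. It may therefore not be the promoter at that start, which limits its comparison with the other windows. Windows with a GC box made up 35.7% of all 32851 windows of this length, and the median GC content of all windows was 52.7%. The Drd4 window (58% GC, 15 CpG, 3 GC boxes, of which a pair overlaps) and the Drd5 window (70.3% GC, 38 CpG, 2 GC boxes) lay on the GC-rich side too. A further Drd1 window, at chr13:54054731-54055030, had 59.3% GC and 1 GC box. No window of the 5 genes held a TATA box (TATAAA, either strand; 13.6% of all windows) or a cyclic AMP response element (TGACGTCA, which reads the same on both strands; 1.79% of all windows).

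The whole-series values that touch these genes were as follows. The library with the fewest counts had 11.21 M (mega-counts) and that with the most 52.34 M, around a median of 21.71 M. A level of 1 CPM, which is 1 count per mega-count of a library's total, therefore stood for about 22 reads in a typical library. Region labels were checked with marker genes. Ppp1r1b, which encodes the striatal protein DARPP-32, had a median of 940.2 CPM in Nac, and 22.1 (VTA) to 52.8 CPM (PFC) in the other regions. The dopamine transporter gene Slc6a3 had a median of 1661 CPM in VTA and medians of 0.794 to 1.36 CPM elsewhere. The cortical gene Fezf2 had a median of 78.3 CPM in PFC. Esr1, an oestrogen receptor gene that medial amygdala neurons express, had a median of 13.9 CPM in AMY (3.58 to 70.5). Its medians elsewhere were 8.81 CPM in PFC (4.08 to 13.2), 3.43 in VTA and 2.53 in Nac, so it separated AMY from PFC only weakly. The aromatase gene Cyp19a1, which marks some of these neurons, was low in AMY at 0.915 CPM. By principal components, by markers of choroid plexus, cerebellum or pituitary, or by transcripts of the other sex, 20 libraries stood apart, of which AMY had 7, VTA 6, Nac 5 and PFC 2. Receptor tests of region, housing, sex, cocaine, schedule and number series, and the relations, were also computed without them. Tests within single combinations of housing and sex, counts over gene lists and the search for the most similar genes were not.

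Each receptor had its own order of regions. Drd1 was far higher in Nac than elsewhere, Drd2 was high in Nac and VTA, Drd3 was low and highest in Nac, Drd5 was low everywhere and highest in PFC, and Drd4 stayed near the limit of detection in every region. To compare genes, levels were divided by exon length, and these values are given as CPM per kilobase. By that measure Drd1 led in Nac with 68.9 ± 14.5, followed by Drd2 with 47.3 ± 12, Drd3 with 4.79 ± 1.45, Drd5 with 0.683 ± 0.171 and Drd4 with 0.0358 ± 0.0276 (SD, n = 112). In VTA the order was different, since Drd2 led with 37.5 ± 14 CPM per kilobase and Drd1 reached 0.635 ± 0.290 (SD, n = 115). AMY and PFC had like amounts of Drd1, 7.13 ± 1.86 (n = 115) and 7.01 ± 2.74 CPM per kilobase (SD, n = 112).

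Drd1 (ENSMUSG00000021478.5, chr13:54051183-54055705, minus strand, GRCm38) ranged from 115 to 348 CPM in Nac with a median of 254. In AMY it ranged from 6.28 to 56.7 CPM (median 26.5), in PFC from 12.4 to 81.4 (median 23.6) and in VTA from 0.863 to 5.97 (median 1.93). Every Nac library was above every library of the other regions. The log2 difference of Nac minus AMY was 3.34 and that of Nac minus VTA 6.83 ± 0.07 (SE). AMY and PFC, neighbours in the order, differed by -0.07 ± 0.05 on the log2 scale, which did not pass the test (edgeR quasi-likelihood, adjusted p = 0.187).

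Drd2 (ENSMUSG00000032259.7, chr9:49340627-49408177, plus strand) ranged from 17.6 to 191 CPM in Nac with a median of 123. In VTA it ranged from 28.7 to 183 CPM (median 95), in AMY from 1.69 to 21.3 (median 7.22) and in PFC from 0.684 to 39.6 (median 2.64). The Nac and VTA libraries overlapped over nearly their whole range, and the log2 difference of Nac minus VTA was 0.39 ± 0.08 (SE, edgeR adjusted p = 4.07e-06). PFC was the most uneven, with a highest library 57.9 times the lowest.

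Drd3 (ENSMUSG00000022705.4, chr16:43754026-43822932, plus strand) ranged from 0.331 to 16.9 CPM in Nac with a median of 8.20. Medians were 0.930 CPM in AMY, 0.426 in VTA and 0.0413 in PFC. Reads of Drd3 were absent from 48 of 112 PFC libraries and from 1 AMY library. A count of 0 limits the level only to what 3 counts would give in that library. The gene Gm25996 lies within Drd3 on the same strand, so a share of the reads could belong to it.

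Drd5 (ENSMUSG00000039358.2, chr5:38319367-38322518, plus strand) had another order, with a median of 2.97 CPM in PFC (1.44 to 4.6) and of 2.08 CPM in Nac (0.625 to 4.52). Its median was 1.19 CPM in AMY (0.593 to 6.07) and 1.02 CPM in VTA (0.310 to 2.52). The log2 difference of Nac minus PFC was -0.49 ± 0.06 (SE, edgeR adjusted p = 4.99e-14). Gm26560 overlaps Drd5 on the opposite strand, and the strand setting of the counting is not given in the sources used here, so Drd5 values are uncertain to that extent.

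Drd4 (ENSMUSG00000025496.4, chr7:141292006-141296464, plus strand) had at most 17 counts in any library. Its median was 0.184 CPM in PFC, 0.1 in Nac, 0.0994 in VTA and 0.0464 in AMY. It was at 0 in 2 PFC, 15 Nac, 17 VTA and 40 AMY libraries. It did not pass the filter on low counts in any region, nor in the main fit over all regions. In the regional fit without the libraries that stand apart it did pass, and 5 of its 6 differences were called, among them Nac minus AMY at 1.19 ± 0.18, AMY minus PFC at -2.03 ± 0.15 and PFC minus VTA at 1.11 ± 0.13 (SE, edgeR adjusted p = 9.61e-11, 3.38e-33 and 5.58e-16). Nac minus VTA was not called (0.27 ± 0.15, adjusted p = 0.0872). The filter asks for a minimum level in only a few libraries. Drd4 was highest in PFC (up to 0.663 CPM, against 0.455 in Nac, 0.280 in VTA and 0.239 in AMY). It entered this fit largely through that region, so its calls against PFC give no independent support. In the main regional fit 81.4% to 90.4% of genes were called.

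**Figure D1:**
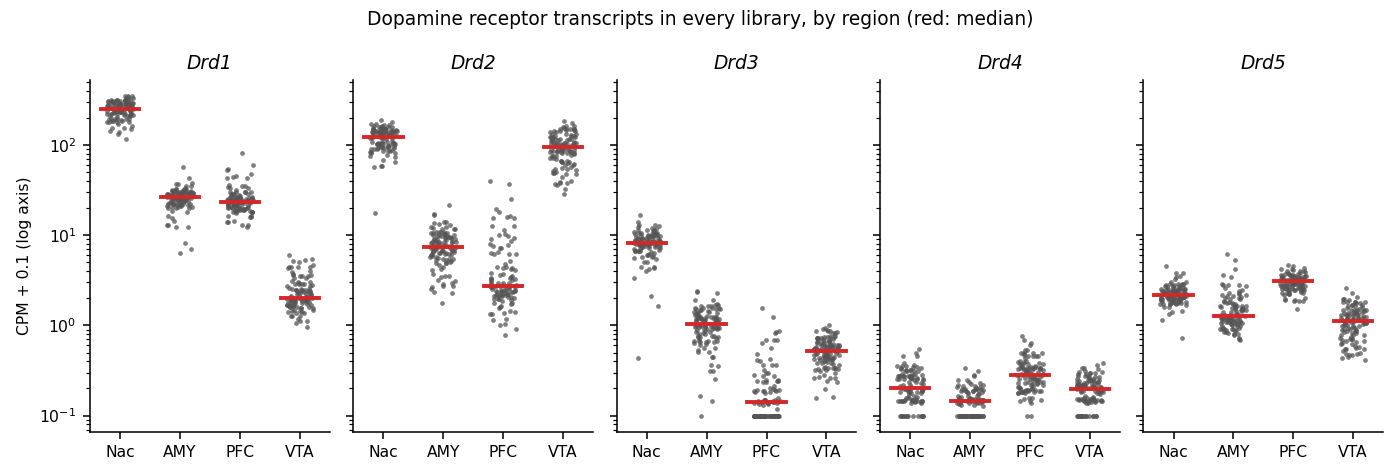
Level of each dopamine receptor gene in every library, as CPM + 0.1 on a log axis, by region, with the median of the region as a red line. Drd1 is highest in Nac (median 254 CPM), Drd2 in Nac and VTA (123 and 95 CPM), Drd3 in Nac (8.20 CPM) and Drd5 in PFC (2.97 CPM).

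Between regions, 23 of the 24 tests on Drd1, Drd2, Drd3 and Drd5 passed the threshold of an adjusted p of 0.05. This says little about the receptors, since most of the 18627 genes tested did so as well: 90.4% in Nac minus VTA, 84.4% in Nac minus AMY, 86% in Nac minus PFC, 81.4% in AMY minus PFC, 87.3% in AMY minus VTA and 89.3% in PFC minus VTA. The sizes set the receptors apart from each other. Drd3 differed by 6.44 on the log2 scale in Nac minus PFC, Drd2 by 4.73 and Drd1 by 3.27. In PFC minus VTA, Drd1 was higher by 3.56 and Drd5 by 1.60, while Drd2 was lower, at -4.34, and Drd3 at -2.18.

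Housing is the condition named in the study's title, and no dopamine receptor passed the test for it in any region. The same was true of every gene tested, since 0% passed with edgeR in isolated minus group-housed mice in each of the 4 regions. At an unadjusted p under 0.05, between 407 (PFC) and 708 (AMY) genes were found a region, among them 1 receptor, Drd3 in VTA. In Nac, where Drd1, Drd2 and Drd3 are most abundant, Drd1 ranged from 133 to 348 CPM in isolated mice (median 241, n = 56), against 115 to 346 CPM in group-housed mice (median 265, n = 56). The log2 difference was -0.07 with a 95% interval from -0.20 to 0.06. Drd2 in Nac differed by -0.08 (interval from -0.23 to 0.08) and Drd5 by 0.01 (from -0.12 to 0.14).

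The smallest p-values of single receptors for housing belonged to Drd3 in VTA and Drd5 in AMY, and neither passed. Drd5 in AMY had a median of 1.25 CPM in isolated mice (0.593 to 6.07, n = 57) and of 1.12 CPM in group-housed mice (0.600 to 3.54, n = 58), a log2 difference of 0.24 ± 0.13 (SE, edgeR unadjusted p = 0.0589). Drd3 in VTA had a median of 0.446 CPM in isolated mice and of 0.398 CPM in group-housed mice, a log2 difference of 0.23 ± 0.11 (SE, edgeR unadjusted p = 0.0319, adjusted p = 1). The groups overlapped over nearly all of their range in both. The largest fitted difference was that of Drd3 in PFC, -0.56 ± 0.39 (SE, edgeR unadjusted p = 0.154), on very few reads. Its level there was 0 to 1.46 CPM in isolated mice (median 0.00955) and 0 to 0.771 CPM in group-housed mice (median 0.045).

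Drd3 in Nac had opposite signs in the sexes under saline. In males, isolated mice had 5.47 to 13.9 CPM (median 8.44, n = 16), against 1.55 to 10.3 CPM in group-housed mice (median 5.88, n = 15), and 14 of 16 isolated libraries lay above the group-housed median. In females, isolated mice had 0.331 to 9.99 CPM (median 7.77, n = 12), against 5.69 to 12.7 CPM in group-housed mice (median 8.54, n = 12), and 4 of 12 lay above. The log2 differences were 0.50 ± 0.17 in males and -0.26 in females. The test of the difference between them gave -0.75 ± 0.26 (SE), which did not pass after adjustment over all genes (edgeR unadjusted p = 0.00448, adjusted p = 0.245). No gene passed that test in any region. Unadjusted, 2598 Nac genes had a p under 0.05, against 278 (VTA) to 649 (AMY) in the other regions. The lowest isolated female, at 0.331 CPM, is isolated female 6 of chronic saline, a library that stands apart.

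Sex did not change any receptor past the threshold either. In female minus male mice, 0.272% of genes passed in Nac, 2.19% in AMY, 1.12% in PFC and 0.332% in VTA, and 0 of 16 receptor tests. Drd1 in PFC came nearest, with 13.8 to 52.2 CPM in females (median 22.7, n = 56), against 12.4 to 81.4 CPM in males (median 24.5, n = 56). Its log2 difference was -0.16 ± 0.08 (SE, edgeR unadjusted p = 0.0491, adjusted p = 0.375), and 18 of 56 females lay above the male median.

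Acute cocaine left the receptors of Nac with nearly the same levels as acute saline. Drd1 averaged 240 ± 46.7 CPM after cocaine (SD, n = 28) and 239 ± 59.6 CPM after saline (SD, n = 27), with a log2 difference of 0.01 and a 95% interval from -0.18 to 0.19. Drd2 in Nac averaged 112 ± 24.2 CPM after cocaine and 112 ± 29.8 CPM after saline, with an interval from -0.23 to 0.22. Drd3 differed by 0.02 (interval from -0.23 to 0.27).

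In the other regions the values for acute cocaine were wider, and none passed. The share of all genes that passed with edgeR was 0% in Nac and AMY, 0.0647% in PFC and 0.0467% in VTA. Unadjusted, 894 genes in Nac, 538 in AMY, 1802 in PFC and 1110 in VTA had a p under 0.05, and no receptor did in any region. Drd2 in VTA had 35.8 to 133 CPM after cocaine (median 76.0, n = 29), against 28.7 to 106 CPM after saline (median 69.5, n = 28). Its log2 difference was 0.21 ± 0.12 (SE). Drd5 in VTA went the other way, with a median of 1.11 CPM after cocaine and 1.28 CPM after saline, a log2 difference of -0.26 ± 0.14 (SE, edgeR unadjusted p = 0.0694). A joint test of whether the response to acute cocaine differed among the 4 combinations of sex and housing passed for 0.362% of genes in VTA and 0% in the other 3 regions, with no receptor among them. The like test for chronic cocaine passed for 0.145% of genes in Nac and 0% elsewhere, again with no receptor.

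Chronic cocaine was accompanied by higher Drd1 and Drd2 in PFC, by higher Drd3 on very few reads, and by no called receptor change in the other regions. In PFC 7.12% of all genes passed (3.93% upward), against 0.151% in Nac, 0.0518% in AMY and 0.0817% in VTA. Drd1 had 13.8 to 81.4 CPM after chronic cocaine (median 23.8, n = 28), against 12.9 to 44.1 CPM after chronic saline (median 19.8, n = 26). Its log2 difference was 0.39 ± 0.12 (SE, edgeR adjusted p = 0.0296), and 19 of 28 cocaine libraries lay above the saline median.

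Drd2, the receptor of indirect pathway neurons, moved more. It had 0.940 to 39.6 CPM after chronic cocaine (median 4.31) and 0.684 to 25.0 CPM after chronic saline (median 2.33). The log2 difference was 1.17 ± 0.30 (SE, edgeR adjusted p = 0.0135). The groups overlapped widely, yet 22 of the 28 cocaine values exceeded the middle saline value. Drd3 had 0 to 1.46 CPM after cocaine (median 0.0895) and 0 to 0.747 CPM after saline (median 0.0245), a fitted log2 difference of 1.91 ± 0.54 (SE, edgeR adjusted p = 0.0217) that rests on very few reads. The filter asks for a minimum level in only a few libraries, and the highest PFC libraries of Drd3 were after chronic cocaine. Drd3 may have entered the fit largely through them, so its call gives no independent support. With no filter on low counts its adjusted p was 0.0411 (edgeR). Drd5 did not pass, with a median of 2.93 CPM after cocaine and 3.02 CPM after saline and a log2 difference of -0.06 ± 0.08.

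Tested within each combination of housing and sex, the receptors passed in isolated males, where 6.91% of all genes did. Their Drd2 had 1.99 to 39.6 CPM after chronic cocaine (median 9.80, n = 7) and 0.808 to 4.36 CPM after chronic saline (median 1.86, n = 7). All 7 cocaine libraries lay above the saline median, though the groups overlapped, and the log2 difference was 2.98 (95% interval from 1.75 to 4.20, edgeR adjusted p = 0.00452). Drd1 in the same mice had 19.6 to 81.4 CPM after cocaine (median 28.8) and 12.9 to 25.8 CPM after saline (median 19.1), a log2 difference of 1.01 (interval from 0.55 to 1.46, edgeR adjusted p = 0.00568). Drd3 had 0 to 1.46 CPM after cocaine and 0 to 0.0501 CPM after saline (edgeR adjusted p = 0.00563), too few reads for a fold to be given. The limit set by the filter applies to this call of Drd3 as well.

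In the other combinations no receptor passed, and 0 of all 17003 genes did in each of them. Drd2 differed by 0.52 (95% interval from -0.75 to 1.78) in isolated females, by 1.09 (from -0.08 to 2.26) in group-housed females and by 0.11 (from -1.04 to 1.26) in group-housed males. Drd1 differed by 0.04 in isolated females, 0.40 in group-housed females and 0.10 in group-housed males. That the 4 combinations differ among themselves is not shown, because the joint test gave an adjusted p of 1 for each receptor (edgeR, unadjusted p = 0.0155 for Drd1, 0.0058 for Drd2 and 0.0114 for Drd3).

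**Figure D2:**
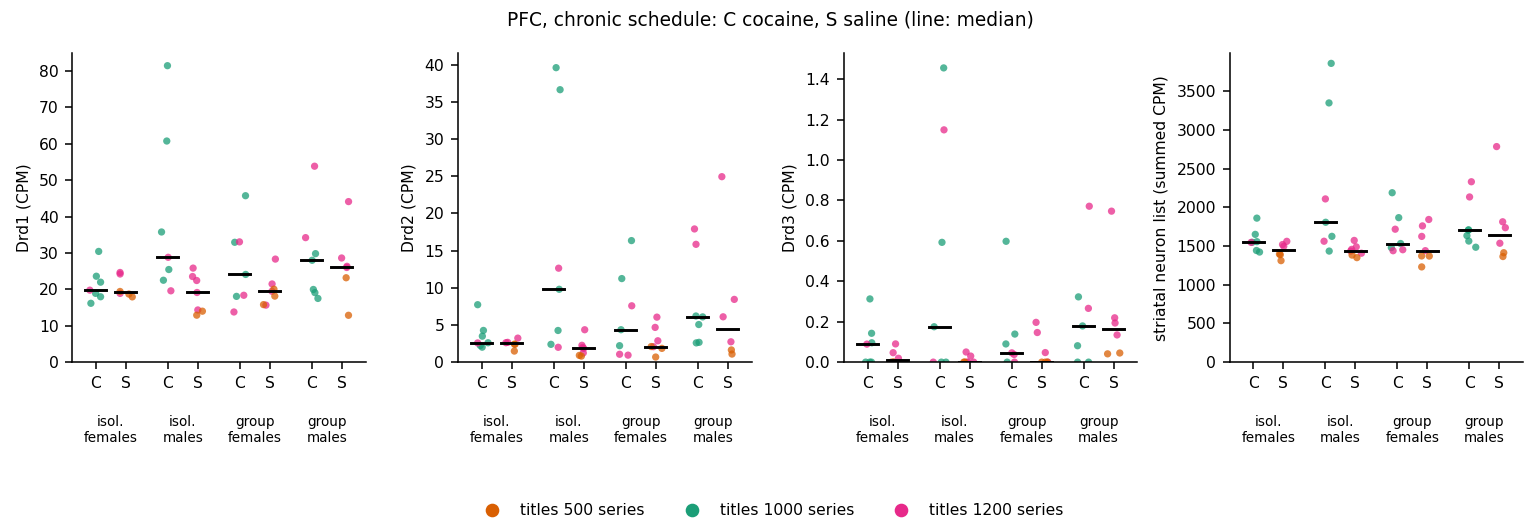
Levels in each PFC library of the chronic schedule, cocaine (C) left of saline (S), by housing and sex, for Drd1, Drd2 and Drd3 in CPM and for the summed CPM of the shared striatal projection neuron genes, with medians as lines and the number series of the library titles as colours. Isolated males after cocaine reach 81.4 CPM of Drd1 and 39.6 CPM of Drd2, and the same libraries are high on the striatal list.

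Markers of striatal neurons moved with this result. Summed over the 15 shared striatal projection neuron genes, PFC libraries had 1422 to 3859 CPM after chronic cocaine (median 1629) and 1230.01 to 2784 CPM after chronic saline (median 1448), and 24 of 28 cocaine libraries lay above the saline median. Of these 15 genes 7 were higher and 0 lower, with a median log2 difference of 0.23 against 0.00 over all genes. In isolated males 11 of 15 were higher with a median of 0.70, and the sums ran from 1435 to 3859 CPM after cocaine (median 1807), against 1350 to 1572 CPM after saline (median 1435). The 4 D2-type striatal neuron genes measured here, of 5 listed, summed to 29.5 to 464 CPM in isolated males after cocaine (median 105) and 30.2 to 51.5 CPM after saline (median 32.6). Their defining marker Adora2a, the adenosine receptor gene of indirect pathway neurons, had 2.53 to 78.8 CPM after cocaine and 1.53 to 5.86 CPM after saline in these mice. With the striatal list as a term in the fit, a setting chosen after seeing the data, Drd1, Drd2 and Drd3 no longer passed: the log2 difference was 0.03 ± 0.07 for Drd1, 0.19 ± 0.13 for Drd2 and 0.87 ± 0.43 for Drd3 (SE, edgeR adjusted p = 0.968, 0.740 and 0.543). In bulk tissue, more cells of a type and more RNA per cell cannot be told apart.

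The number series of the library titles moved with the chronic comparison as well. Titles carry a region letter and a number from the 500, 1000, 1100 or 1200 series, whose meaning the labels do not give. All acute libraries fell in the 1000 and 1100 series, chronic saline in the 500 and 1200 series, and chronic cocaine in the 1000 and 1200 series. Chronic cocaine and saline therefore share only the 1200 series (8 against 16 PFC libraries). Within it the log2 differences were 0.12 ± 0.18 for Drd1, 0.47 ± 0.44 for Drd2 and 1.15 ± 0.93 for Drd3 (SE), none past the threshold, where 0.0294% of genes passed. Under chronic saline, the 500 series was itself lower than the 1200 series in PFC. Drd2 had 0.684 to 2.41 CPM in the 500 series (median 1.56, n = 10), against 1.24 to 25.0 CPM in the 1200 series (median 2.80, n = 16), a log2 difference of -1.50 ± 0.47 (SE, edgeR adjusted p = 0.0214). Drd1 differed by -0.47 between them (edgeR adjusted p = 0.0422), and 14.6% of all genes passed. Across the 54 libraries left out in turn, the Drd2 difference of chronic cocaine ran from 1.06 to 1.38 and passed each time. Drd1 (0.32 to 0.42) missed the threshold without any of 6 libraries, namely cocaine group-housed female 2, isolated female 2, isolated males 3 and 4 and group-housed male 7, and saline group-housed male 5 (highest adjusted p = 0.0732). Drd3 missed it without cocaine group-housed female 2 or isolated female 2 (highest adjusted p = 0.0833). Drd1 also missed it with limma voom and with no filter on low counts (adjusted p = 0.0595 and 0.0609), and Drd3 with limma voom (adjusted p = 0.146).

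In Nac, Drd3 came nearest to the threshold under chronic cocaine. It had 5.01 to 16.9 CPM after cocaine (median 8, n = 29) and 0.331 to 9.82 CPM after saline (median 7.27, n = 28), a log2 difference of 0.33 ± 0.13 (SE, edgeR unadjusted p = 0.0113, adjusted p = 0.159). Drd1 in Nac averaged 262 ± 50.0 CPM after cocaine and 258 ± 52.1 CPM after saline, with an interval from -0.16 to 0.20 for the log2 difference. Drd2 in VTA averaged 120 ± 29.3 CPM after cocaine and 112 ± 34.4 CPM after saline (SD, n = 29 each), with an interval from -0.16 to 0.33. In AMY the 4 tested receptors lay between -0.14 and 0.09.

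**Figure D3:**
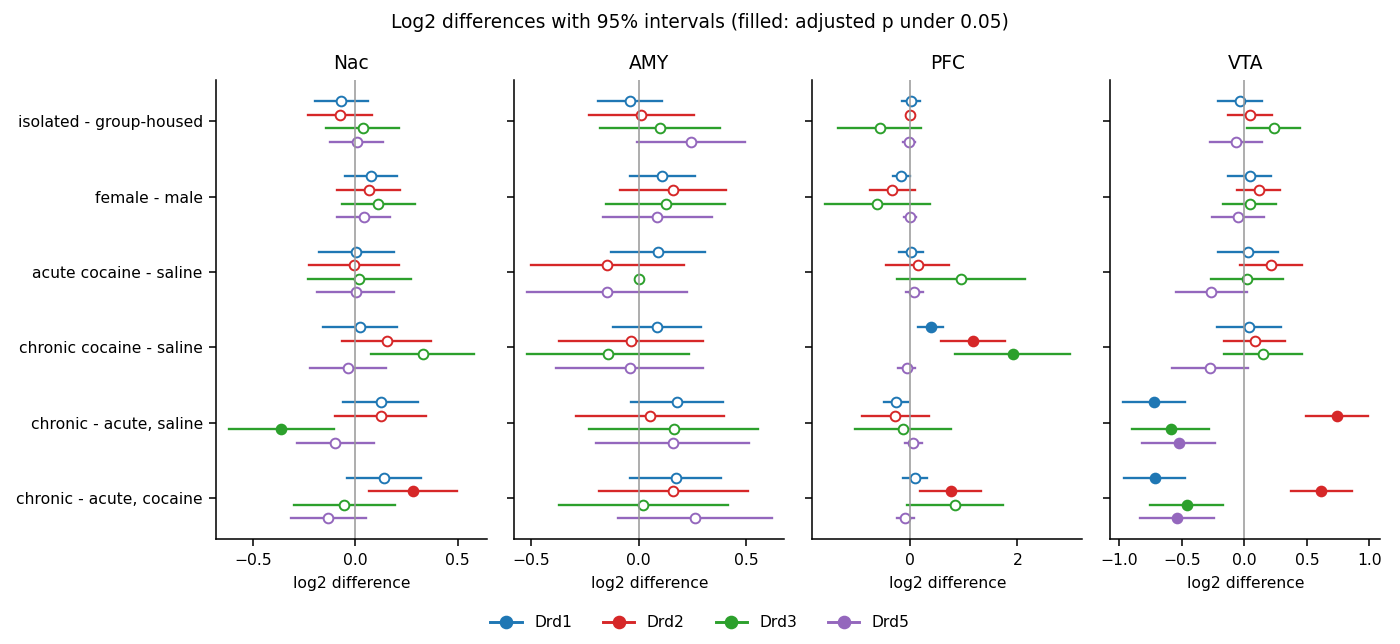
Log2 differences of Drd1, Drd2, Drd3 and Drd5 with 95% intervals for 6 comparisons, by region; filled points had an adjusted p under 0.05, the horizontal scales differ between panels, and no interval is drawn for the 2 differences nearest to 0 (Drd2 in PFC for housing and Drd3 in AMY for acute cocaine). Filled points appear in PFC under chronic cocaine and in VTA in both comparisons of schedule, with 2 more in Nac and 1 more in PFC.

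The largest set of receptor differences was between schedules in VTA. Under saline and under cocaine alike, chronic libraries had more Drd2 and less Drd1, Drd3 and Drd5 than acute ones. The background is high here, since 43.6% of all VTA genes passed under saline (21.4% higher and 22.2% lower) and 38.2% under cocaine (18.2% higher and 20% lower). Schedules under saline share no number series, so that schedule and series cannot be told apart there.

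Drd2 in VTA had 53.8 to 165 CPM in chronic saline mice (median 114, n = 29), against 28.7 to 106 CPM in acute saline mice (median 69.5, n = 28). The log2 difference was 0.74 ± 0.13 (SE, edgeR adjusted p = 7.32e-07), and 24 of 29 chronic libraries lay above the acute median. Under cocaine Drd2 had 52.5 to 183 CPM in chronic mice (median 123, n = 29), against 35.8 to 133 CPM in acute mice (median 76.0, n = 29). Its log2 difference was 0.62 ± 0.12 (SE, edgeR adjusted p = 3.22e-05), with 28 of 29 chronic libraries above the acute median.

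Drd1, which is far lower in VTA than in Nac, went the other way. Under saline it had 0.863 to 2.45 CPM in chronic mice (median 1.59), against 1.33 to 5.97 CPM in acute mice (median 2.73), and none of the 29 chronic libraries lay above the acute median. The log2 difference was -0.73 ± 0.13 (SE, edgeR adjusted p = 1.16e-06). Under cocaine it was -0.72 ± 0.12 (adjusted p = 1.51e-06), and 1 of 29 chronic libraries lay above the acute median.

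Drd3 and Drd5 were lower by similar amounts. Drd3 had a median of 0.317 CPM in chronic saline mice and 0.506 CPM in acute saline mice, a log2 difference of -0.59 ± 0.15, and under cocaine the difference was -0.46 ± 0.15 (SE, edgeR adjusted p = 0.00114 and 0.00937). Drd5 had a median of 0.815 CPM in chronic saline mice and 1.28 CPM in acute saline mice, a log2 difference of -0.52 ± 0.15, and under cocaine -0.53 ± 0.15 (SE, edgeR adjusted p = 0.00239 and 0.00269). In each of these comparisons 2 to 4 of 29 chronic libraries lay above the acute median.

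**Figure D4:**
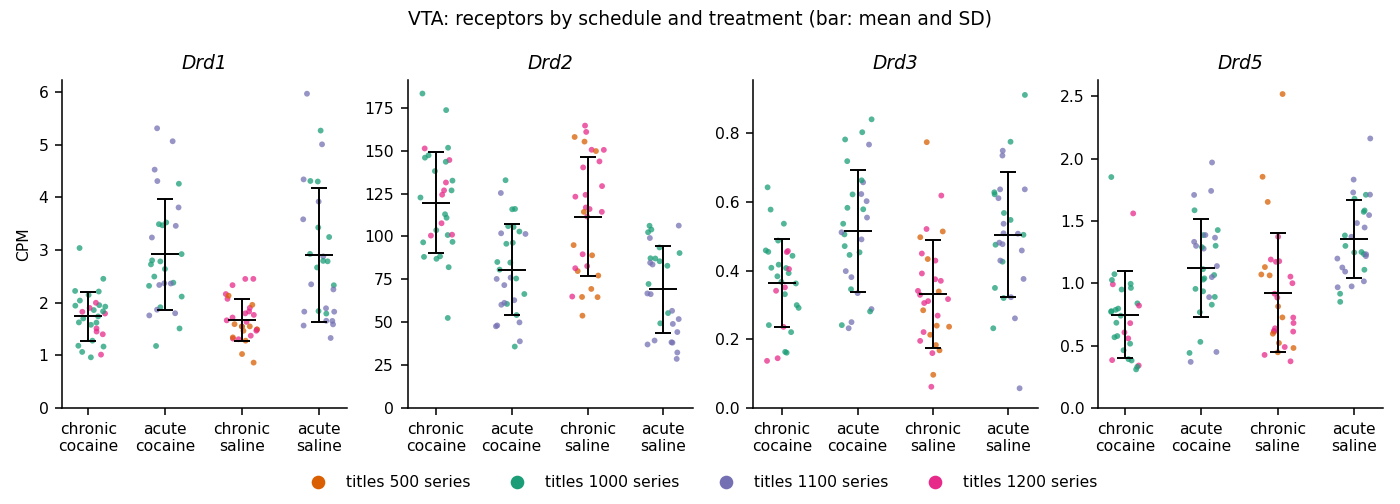
CPM of Drd1, Drd2, Drd3 and Drd5 in each VTA library, chronic left of acute within cocaine and within saline, with mean and SD as bars and the number series of the titles as colours. Drd2 is higher in chronic libraries (medians 123 and 114 CPM, against 76.0 and 69.5 CPM in acute ones), and Drd1, Drd3 and Drd5 are lower.

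The 1000 series holds both schedules under cocaine, which allowed 1 comparison within a series (21 chronic against 16 acute VTA libraries, with 18.5% of genes past the threshold). Drd1 differed by -0.53 ± 0.16 there, Drd2 by 0.43 ± 0.15, Drd3 by -0.52 ± 0.18 and Drd5 by -0.40 (edgeR adjusted p = 0.013, 0.0337, 0.0357 and 0.135). Drd2 within the 1000 series had 52.5 to 183 CPM in chronic mice (median 113), against 35.8 to 133 CPM in acute mice (median 90.4). With the number series as a term in the fit, all 4 saline calls were lost, at -0.41 ± 0.26 for Drd1, 0.52 ± 0.24 for Drd2, -0.36 ± 0.33 for Drd3 and -0.48 ± 0.31 for Drd5 (SE, edgeR adjusted p = 0.147 to 0.502). Under the same setting, Drd1, Drd2 and Drd3 kept theirs under cocaine (-0.64, 0.38 and -0.46) and Drd5 did not (-0.42, adjusted p = 0.0576).

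Markers of dopamine neurons moved with the VTA result. The 12 dopamine neuron genes summed to 3199 to 9907 CPM in chronic saline mice (median 6668) and 1766 to 6795 CPM in acute saline mice (median 4379). Under cocaine the sums were 2792 to 10560 CPM in chronic mice (median 7185) and 1790 to 8897 CPM in acute mice (median 4367). Of the 12 genes, 9 were higher and 0 lower in chronic libraries under either treatment, with median log2 differences of 0.62 and 0.53. With the list as a term in the fit, a setting chosen after seeing the data, Drd2 still passed, at 0.32 under saline and 0.25 under cocaine. Drd1 (-0.83 and -0.81) and Drd3 (-0.63 and -0.50) kept their calls as well. Drd5 did not (-0.28 and -0.27, adjusted p = 0.0624 and 0.0829).

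Elsewhere the schedules differed in few receptors, although 20.9% of genes passed in Nac under saline, 24.3% under cocaine, 20.4% and 18.4% in AMY and 23.3% and 18.5% in PFC. Drd3 in Nac was lower in chronic saline mice (0.331 to 9.82 CPM, median 7.27, n = 28) than in acute ones (3.29 to 13.9 CPM, median 8.68, n = 27), a log2 difference of -0.36 ± 0.13 (SE, edgeR adjusted p = 0.0355). It missed the threshold with no filter on low counts (adjusted p = 0.0551) and with the number series as a term (-0.31 ± 0.26, adjusted p = 0.974), and the saline schedules share no series. Drd2 in Nac was higher in chronic cocaine mice (77 to 191 CPM, median 143, n = 29) than in acute ones (68.8 to 152 CPM, median 117, n = 28), a log2 difference of 0.28 ± 0.11 (SE, edgeR adjusted p = 0.0467). It missed the threshold with no filter on low counts, with limma voom and with the series term (adjusted p = 0.1, 0.0653 and 0.130). Within the 1000 series Drd2 in Nac differed by 0.24 (adjusted p = 0.223), where 6.84% of genes passed. Of the 15 shared striatal projection neuron genes, 6 were higher under saline and 8 under cocaine in Nac, and with them as a term Drd2 stood at -0.03 under cocaine.

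Drd2 in PFC was higher in chronic than acute cocaine mice as well, with 0.940 to 39.6 CPM (median 4.31, n = 28), against 1.32 to 15.5 CPM (median 3.09, n = 30). The log2 difference was 0.76 ± 0.28 (SE, edgeR adjusted p = 0.0486), and within the 1000 series it was 1.05 ± 0.34 (adjusted p = 0.0364), where 10.9% of genes passed. The first missed the threshold with RLE scaling, with no filter on low counts and with limma voom (adjusted p = 0.0501, 0.094 and 0.181). In both, the chronic mice are those already compared with chronic saline above. With the striatal list as a term, the difference was -0.06. No receptor passed in AMY, where Drd1 differed by 0.18 and 0.17 and Drd5 by 0.16 and 0.26 under saline and cocaine. Within the 1000 series of AMY, Drd2 and Drd5 differed by 0.55 each (adjusted p = 0.061 and 0.0617), and 16.6% of genes passed. With the number series as a term, 3 receptors passed under cocaine in AMY, Drd1 at 0.33 ± 0.13, Drd2 at 0.62 ± 0.19 and Drd5 at 0.55 ± 0.20 (SE, edgeR adjusted p = 0.0452, 0.0117 and 0.0325). The share of all genes that passed in that fit is not given here, so this count cannot be set against a background.

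In AMY, receptors differed between number series within 1 schedule. Among acute mice, Drd2 in AMY was higher in the 1100 than in the 1000 series by 0.73 ± 0.17, and Drd1 by 0.34 ± 0.11 (SE, edgeR adjusted p = 0.00536 and 0.0498), with 5.12% of genes past the threshold. Without the libraries that stand apart, Drd2 kept its call at 0.68 and Drd1 did not (0.28, adjusted p = 0.219). Among chronic saline mice, Drd5 in AMY had 0.941 to 5.18 CPM in the 500 series (median 1.89, n = 13), against 0.702 to 2 CPM in the 1200 series (median 1.02, n = 17). Its log2 difference was 0.99 ± 0.22 (SE, edgeR adjusted p = 0.0103), with 4.06% of genes past the threshold.

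In the other regions the series of acute mice did not differ in any receptor, with 1.15% of genes past the threshold in Nac, 2.28% in PFC and 0.0817% in VTA. Drd2 in VTA came nearest, with 28.7 to 125 CPM in the 1100 series (median 60.2, n = 29), against 35.8 to 133 CPM in the 1000 series (median 87.2, n = 28), a log2 difference of -0.46 ± 0.12 (SE, edgeR adjusted p = 0.0572). Between the chronic saline series no receptor passed in VTA, where 0.0642% of genes did. In Nac Drd3 differed by -1.04 in the 500 minus the 1200 series (edgeR adjusted p = 0.000453) with 44.1% of genes past the threshold. Isolated female 6 of the chronic saline group is the lone isolated female of the 500 series among them, stood apart, and had the lowest Drd2 and Drd3 of the region, 17.6 and 0.331 CPM. Without the libraries that stand apart, which leaves 8 against 13 libraries and 3 combinations of sex and housing, Drd3 differed by 0.06 ± 0.19 (adjusted p = 0.885), and 494 genes passed in place of 7622.

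Drd1 and Drd2 went up and down together from library to library within groups. Over deviations from the group mean on a log2(CPM + 0.1) scale, Pearson's r between them was 0.84 in Nac (n = 112, Spearman's rho 0.89), 0.71 in AMY (n = 115, rho 0.59) and 0.86 in PFC (n = 112, rho 0.80). The adjusted permutation p was 2.5e-05 for each r over a family of 15 pairs, and the unadjusted p was 1e-05, the smallest the permutations can give. Without the 2 libraries farthest from the median on Drd1, r was 0.82, 0.67 and 0.84. It ran from 0.83 to 0.93 over the 4 number series in Nac and from 0.70 to 0.88 in PFC. In AMY it was 0.79 and 0.75 in the 1000 and 1100 series, but -0.19 in the 500 and 0.14 in the 1200 series, so the AMY relation did not hold within every series. In VTA, Drd1 and Drd2 had r = 0.20 (adjusted permutation p = 0.07).

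Drd5 did not follow this pattern. In VTA it ran against Drd2, with r = -0.59 (rho -0.60, n = 115, adjusted permutation p = 2.5e-05, -0.57 without the 2 farthest libraries) and between -0.85 and -0.48 in the 4 number series. In AMY it ran with Drd2 (r = 0.47, rho 0.44, adjusted permutation p = 4.3e-05). In PFC it had a weaker r of 0.28 with Drd1 and 0.22 with Drd2 (adjusted permutation p = 0.0061 and 0.034). In Nac, Drd1 and Drd5 had r = -0.24 (adjusted permutation p = 0.047), with a rho of -0.20 that did not pass (adjusted p = 0.075). This r was 0.12, -0.24, 0.15 and -0.77 in the 500, 1000, 1100 and 1200 series, so it did not hold within every series. Drd2 and Drd5 in Nac had r = -0.21 and rho -0.26 (adjusted permutation p = 0.051 and 0.017). Drd3 could be followed in Nac alone, where its r was 0.67 with Drd2 (rho 0.50, 0.47 without the 2 farthest libraries) and 0.43 with Drd1 (rho 0.41).

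The same deviations were set against those of marker lists, with 39 pairs in the family. In Nac the shared striatal projection neuron genes had r = 0.96 with Drd1 (rho 0.95) and 0.86 with Drd2 (rho 0.93). In PFC they had r = 0.91 with Drd2 (rho 0.89) and 0.83 with Drd1 (rho 0.74), but 0.14 with Drd5. In AMY they had r = 0.86 with Drd2 (rho 0.87), and the cholinergic neuron genes had r = 0.77 with Drd2 (rho 0.78) and 0.74 with Drd5 (rho 0.66). In PFC the cholinergic neuron genes had r = 0.87 with Drd2, 0.75 with Drd1 and 0.13 with Drd5. In Nac they had r = 0.35 with Drd5, -0.26 with Drd1 and -0.18 with Drd2 (adjusted permutation p = 0.00041, 0.022 and 0.13). The pairing of a list with a receptor was therefore not particular to 1 receptor. In VTA the dopamine neuron genes had r = 0.97 with Drd2 (rho 0.97) and -0.58 with Drd5 (rho -0.59), and the cholinergic neuron genes had r = -0.63 with Drd2 (rho -0.57) and 0.54 with Drd5 (rho 0.51). The adjusted permutation p was 1.9e-05 for each of the other r values, except those of Drd5 in PFC (p = 0.2 with the striatal and 0.22 with the cholinergic list). The part that the mix of cells in each sample has in these relations was not tested.

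**Figure D5:**
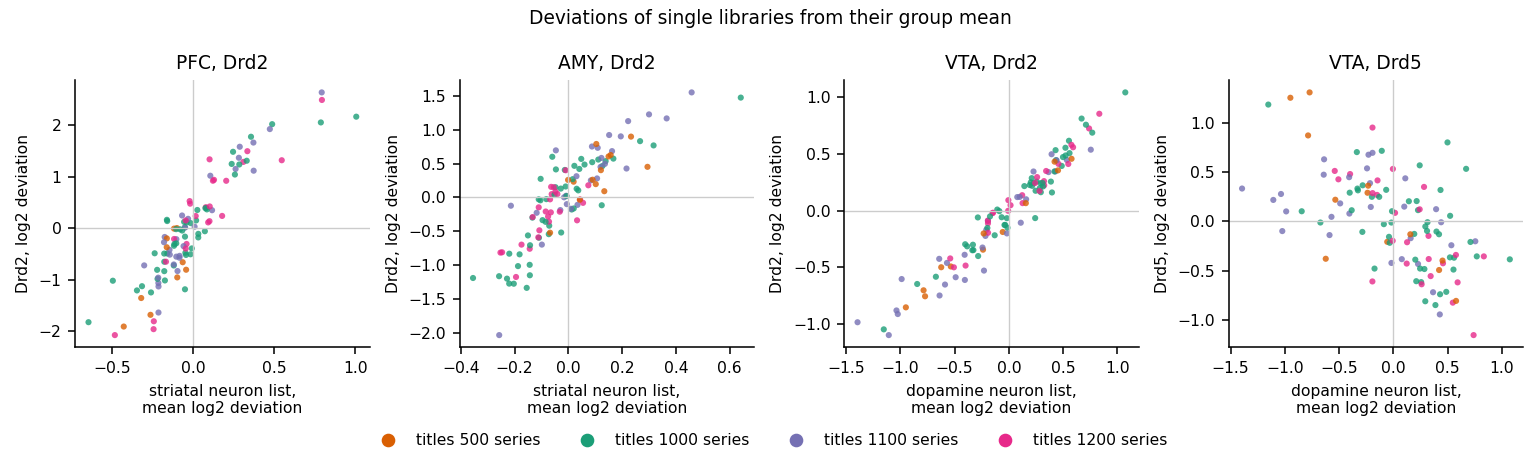
Deviation of a receptor from its group mean in each library, on a log2(CPM + 0.1) scale, against the mean deviation of a marker list, with the number series of the titles as colours. Drd2 rises with the striatal list in PFC and AMY (r = 0.91 and 0.86) and with the dopamine neuron list in VTA (r = 0.97), and Drd5 falls with the dopamine neuron list in VTA (r = -0.58).

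Across all genes of a region, those whose deviations were most like a receptor's were named as well. In Nac these included Kcnab1 and Pde1b for Drd1 (r = 0.96 and 0.95 over 112 libraries), Pde7b and Ptk2b for Drd2 (r = 0.94 and 0.93), Sv2c and Add2 for Drd3 (r = 0.91 and 0.90) and Idh3b for Drd5 (r = 0.67). In VTA they included Slc6a3, Slc10a4 and Dlk1 for Drd2 (r = 0.97 each over 115 libraries). For Drd1 they included Ngef, Kcnip2, Vopp1 and Tac1 (r = 0.75, 0.74, 0.74 and 0.73), and for Drd5 1110032F04Rik and Fibcd1 (r = 0.65 and 0.63). In PFC they included Rgs9 and Ppp1r1b for Drd1 (r = 0.89 each), Syndig1l and Adora2a for Drd2 (r = 0.94 and 0.93) and Gabra5 for Drd5 (r = 0.48). In AMY they included Pbx3 for Drd1 (r = 0.83), Shb and Grm4 for Drd2 (r = 0.90 each) and Cplx1 for Drd5 (r = 0.86). These values describe the libraries and carry no test.

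Between regions, libraries with the same title number were set side by side, although the labels do not say that they come from 1 mouse. Of 18 pairs of the same receptor in different regions, 2 passed, both between Nac and PFC and both negative (99 numbers). Drd2 had r = -0.30 (adjusted permutation p = 0.020, rho -0.32 with adjusted p = 0.03), which was also -0.30 without the 2 farthest libraries and ran from -0.62 to -0.18 within the 4 number series. Drd1 had r = -0.32 (adjusted permutation p = 0.028), but its rho of -0.25 did not pass (adjusted p = 0.18). Without the 2 farthest libraries the r of Drd1 was -0.22, and without the libraries that stand apart it was -0.29 (adjusted p = 0.0715).

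Receptor signalling depends on G proteins, adenylyl cyclase, potassium channels and regulators that end the signal, and 45 of 46 listed dopamine receptor signalling partners were tested in each region. In VTA, 14 were higher and 7 lower in chronic than acute saline mice, and 15 higher and 7 lower in chronic than acute cocaine mice, where 43.6% and 38.2% of all genes were called. Rgs4 and Rgs9, whose proteins switch off G proteins, were lower. Rgs4 had medians of 70.6 CPM in chronic and 105 CPM in acute saline mice, a log2 difference of -0.54. Rgs9, the RGS protein of striatal neurons, had medians of 13.1 CPM in chronic and 24.2 CPM in acute saline mice, a difference of -0.79. Kcnj9, a subunit of the potassium channels that D2 receptors open, differed by -0.31 under saline and -0.26 under cocaine. Gipc1, whose protein binds D2 and D3 receptors, was higher by 0.20 under saline.

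In PFC, 6 of the 45 dopamine receptor signalling partners were higher and 4 lower after chronic cocaine, where 7.12% of all genes were called. Gng7, a G protein subunit of striatal neurons, had medians of 183 CPM after cocaine and 135 CPM after saline (log2 difference 0.44), and Rgs9 had 34.2 CPM after cocaine and 29.7 CPM after saline (0.50). Rgs7 and Prkar1b, a regulatory subunit of protein kinase A, were slightly lower (-0.14 and -0.15). In isolated males, where 6.91% of all genes were called, 8 partners were higher and 4 lower, with Gng7 at 1.01, Rgs9 at 1.45, Adora2a at 3.28 and Adcy5, the adenylyl cyclase of striatal neurons, at 0.60. Gng7, Rgs9 and Adcy5 also stand in the list of shared striatal projection neuron genes.

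In Nac, 6 of the dopamine receptor signalling partners were higher and 6 lower in chronic than acute saline mice, and 9 higher and 5 lower under cocaine, where 20.9% and 24.3% of all genes were called. Kcnj6, another potassium channel subunit, had medians of 2 CPM in chronic and 3.54 CPM in acute saline mice (log2 difference -1.08). Adora2a had medians of 301 CPM in chronic and 221 CPM in acute saline mice (0.43), and the receptor kinase gene Grk3 had 63.1 CPM in chronic and 79.6 CPM in acute saline mice (-0.30). Under cocaine, Flna, whose protein anchors D2 and D3 receptors to actin, was higher by 0.42, and the inhibitory G protein gene Gnai1 was lower, at -0.17. In AMY Kcnj6 was lower in chronic mice under saline and cocaine, at -0.31 and -0.28, and Arrb1, an arrestin gene, was higher by 0.13 under cocaine.

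Within regions, Drd4 was tested only when the filter on low counts was dropped, over 32548 genes in Nac. Its level there was higher in chronic than acute mice, with medians of 0.168 CPM in chronic and 0.0488 CPM in acute saline mice, and of 0.136 CPM in chronic and 0.0529 CPM in acute cocaine mice. The log2 differences were 0.92 ± 0.28 and 0.97 ± 0.30 (SE, edgeR adjusted p = 0.0228 and 0.0237), and 26 of 28 and 25 of 29 chronic libraries lay above the acute median. In the main fit 20.9% and 24.3% of Nac genes passed, and the share with no filter is not given here. The saline schedules share no number series. Under cocaine, the 1000 series had medians of 0.149 CPM in chronic and 0.0773 CPM in acute mice, and the acute 1100 series 0.0421 CPM. With a median of 2 counts a library in Nac, these values stay close to the limit of detection. Drd4 did not pass for housing, sex, cocaine or schedule in any other case.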

How the data were processed

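Per the labels' protocols, total RNA was purified on RNeasy columns, treated with DNase and made into TruSeq stranded mRNA libraries, which were pooled and read as single ends of 50 bases. The authors deposited raw read counts for each gene in a single table. STAR, featureCounts, limma and the build GRCm38/mm10 are named in the submitters' processing notes. The sources used here give neither tool versions nor the annotation release nor whether counting used the strand. Symbols were matched by Ensembl identifier (42462 of 43346), and coordinates and exon lengths come from GENCODE M21 on GRCm38.

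Groups were taken from the labels for region, sex, housing, dose and schedule. Each region was fitted with its 16 groups as means in edgeR 4.0.16 (R 4.3.3): TMM scaling, edgeR's own filter on low counts, a quasi-likelihood test and Benjamini-Hochberg adjustment over 17003 to 17391 genes, with a threshold of 0.05. Regions were compared in 1 fit over all libraries, whose dispersion trend was estimated on 1 gene in 10. Standard errors are the log2 difference over the square root of F. None is given for the 2 differences nearest to 0 (Drd2 in PFC for housing, Drd3 in AMY for acute cocaine), where the ratio is unstable. A library stood apart where 1 of the 4 leading principal components had a robust z beyond 5, or with a z over 8 on a choroid plexus, pituitary or cerebellar list, or with transcripts of the other sex at 5% of that sex's median. Levels are plain CPM with SD or with the lowest, median and highest library. Relations used members with a mean of at least 1 CPM, a pseudocount of 0.1 CPM and 100000 permutations within groups, each two-sided and adjusted within its family. The fits were tested on simulated data.

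Alternatives were RLE scaling, no filter on low counts, limma 3.58.1 voom, DESeq2 1.42.0, the number series as a term or held fixed, marker lists as a term, a block by title number, and leaving out libraries. Title numbers were checked for pairing: libraries of the same number in different regions had a median correlation of 0.0360 to 0.0895 in their deviations from group means, and the lowest was -0.407, so the numbers were not used as pairs in the main tests. They served only in the block alternative and to set the same receptor side by side in different regions. Numbers were printed for the receptors, for list genes by their smallest p in a comparison (at most 4 each), and for some of the 5 genes most like each receptor, taken from the top. Some genes are not reported here. The members, the lists and the tests were chosen with earlier results of these data known.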

Additional observations from a re-analysis of the deposited data

Results flagged for a closer look

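Within groups of 4 to 10 libraries, 30 values lay farther from the rest of their group than Dixon's 95% critical value allows, out of 208 groups looked at for Drd1, Drd2 and Drd5 in 4 regions and for Drd3 in Nac, the region where its mean reached 1 CPM. That is 14.4% of the groups, where chance flags about 1 in 20. The 30 values come from 26 libraries, and 4 of the values are of libraries that stand apart. All are CPM of a single library.

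For Drd1, the lowest values so found were 6.28 in AMY (isolated female 2, acute saline, others 20.2 to 30.7), 149 in Nac (group-housed female 2, chronic cocaine, others 280.2 to 336, a library that stands apart) and 12.4 in PFC (group-housed male 2, acute cocaine, others 22.4 to 29.8). The highest were 42.8 and 56.7 in AMY (isolated female 4 and isolated male 1, chronic cocaine), and 52.2 and 34.6 in PFC (group-housed female 5 and isolated male 2, acute saline).

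For Drd2, 3 values were low: 4.87 in AMY (group-housed female 4, chronic saline), 77 in Nac (group-housed female 2, chronic cocaine) and 17.6 in Nac (isolated female 6, chronic saline, others 90.9 to 128). The last 2 come from libraries that stand apart. The others were high. In PFC they were 9.31 and 19.4 (group-housed female 4, acute cocaine, and 5, acute saline), 7.73 (isolated female 2, chronic cocaine), 25.0 and 4.36 (group-housed male 4 and isolated male 4, chronic saline). In VTA they were 116 (group-housed male 2, acute cocaine, others 35.8 to 66.4) and 151 (isolated male 5, chronic cocaine, others 82.1 to 101).

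For Drd3, which was looked at in Nac alone, there were 5 values. After acute cocaine, isolated female 4 had 4.11, group-housed male 5 had 3.91 and isolated male 5 had 2.001, each the lowest of its group. After chronic cocaine, isolated female 2 had 11.8 and isolated male 3, a library that stands apart, had 16.9, each the highest.

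For Drd5, the high values in AMY were 6.07 (isolated female 7, acute cocaine), 5.18 (isolated female 5, chronic saline) and 4.17 (isolated male 1, chronic cocaine, also high in Drd1). In Nac they were 3.32 (group-housed female 4, chronic cocaine), 3.76 (isolated female 4, acute cocaine, low in Drd3) and 3.41 (group-housed male 3, acute saline). In VTA 2.52 was high (group-housed female 6, chronic saline), and in PFC 1.91 was low (isolated female 3, acute saline).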

How the results depend on the processing

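Of 1513 recomputed receptor values, 1446 were counted as the same, 39 lost their call, 5 gained one and 23 were counted as a change of sign. Those counted as the same stayed on their side of the threshold. They include joint tests, which have no direction. They also include uncalled values whose sign changed by a small amount, under the SE for log2 differences. Of 370 recomputed counts of receptors called, 351 stayed within 1.5 times. With a block by title number, all 24 regional values kept their call (Drd2 in Nac minus VTA was 0.40 against 0.39), as did the 6 counts of receptors called. The cause of a change was not tested.

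Under chronic cocaine in PFC, 3 receptors passed, against 1 with limma voom, 0 with the number series as a term, 0 within series 1200, 0 with the striatal list as a term, and 1 to 3 when leaving out single libraries. Between schedules in Nac, 1 passed under saline, against 0 with the series term and 3 with the striatal list, and 1 under cocaine, against 0 with voom, with the series term and within series 1000. In VTA under saline, 4 passed, against 0 with the series term. In AMY under cocaine, 0 passed, against 3 with the series term. In PFC, 0 passed under saline, against 1 with the striatal list, and 1 under cocaine, against 0 with RLE scaling, with no filter and with voom. For RLE scaling, no filter, voom, the series term and the striatal list, the share of all genes that passed is not given here. Without the libraries that stand apart, series 500 minus 1200 in Nac gave 0 in place of 1 (Drd3 0.061 in place of -1.04, Drd2 0.48 in place of -0.28), and series 1100 minus 1000 in AMY 1 in place of 2.

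The signs counted as changed were those of log2 differences that had not passed, with 3 exceptions. These were Drd2 between schedules under cocaine in Nac and in PFC, and Drd3 between series 500 and 1200 in Nac. With the striatal list as a term, the schedule gave Drd1 -0.088 and Drd2 -0.14 under saline in Nac, Drd1 -0.14 and Drd2 -0.032 under cocaine in Nac, and Drd1 -0.19, Drd2 -0.062 and Drd3 -0.058 under cocaine in PFC. With the series term, the schedule under saline in PFC gave Drd1 0.11, Drd2 0.58 and Drd3 0.60. Chronic cocaine gave Drd5 in AMY 0.30 with the series term and 0.35 within series 1200, Drd1 in VTA -0.19 and -0.17, and Drd3 in VTA -0.10 and -0.13. Acute cocaine gave Drd2 0.18 and Drd3 0.33 in AMY and Drd1 -0.18 in VTA within series 1000, and Drd1 -0.040 in AMY and Drd5 -0.065 in PFC within series 1100. Low counts limit Drd3 in PFC and Drd4 everywhere.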
